A study of Mus musculus with 52 samples.

Results

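The contractile apparatus of smooth muscle was followed through 10 mouse genes, Acta2, Actg2, Tagln, Cnn1, Cnn2, Myh11, Tpm1, Tpm2, Myl9 and Lmod1. They were selected by gene symbol, by a rule without measured values, but the set was chosen with earlier results of these data known. All 10 were found in each of 4 expression tables, which list 34042 to 55487 genes. RNA-seq had been made from C57BL/6 mouse material in 52 libraries, 27 from primary astrocytes and 25 from brain. The 9 astrocyte groups, each of 3 libraries, were wild-type cells left untreated, given medium conditioned by neurons, given medium conditioned by Apoe knockout neurons, given oleic acid or given palmitic acid, and Apoe knockout cells left untreated, given neuronal medium, oleic acid or palmitic acid. The brain libraries fell into a first cohort (3 untreated, 3 with KA-induced TLE), a CNO set (3 untreated, 3 with CNO-induced epilepsy) and a second cohort (3 untreated, 4 with KA, 3 with Apoe knockout and KA, 3 with A2aR knockdown and KA). The labels leave out brain region, doses, times, ages and how A2aR was knocked down. Titles of the astrocyte libraries given medium carry "KA", which is not explained, so whether KA was part of that treatment is not known. They also do not say whether libraries of 1 group came from separate animals or cultures, so the p-values measure the spread between these libraries, which may be technical.

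Smooth muscle cells shorten when myosin filaments pull on thin filaments of actin and tropomyosin. Actin and myosin isoforms build the motor, regulatory light chains switch the myosin on, and calponins and other thin-filament proteins tune or stabilise the array. Many of these genes are controlled by serum response factor (SRF) with its coactivators through a short DNA element, the CArG box. In brain, mural cells of arteries and arterioles carry a more complete contractile set than cultured glia, fibroblasts and pericytes, which can express part of it.

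The actins among the 10 genes are Acta2 (smooth muscle alpha-actin, chromosome 19, 34241090 to 34255590, minus strand, mm10 with GENCODE M21 annotation) and Actg2 (enteric gamma-actin, chromosome 6, 83512905 to 83536265, minus). Myh11, the smooth muscle myosin heavy chain, lies on chromosome 16 at 14194535 to 14291372 (minus), and Myl9, a regulatory light chain, on chromosome 2 at 156775420 to 156781658 (plus). The calponins Cnn1 (chromosome 9, 22099216 to 22109630, plus) and Cnn2 (chromosome 10, 79988584 to 79996062, plus) and the related Tagln (transgelin or SM22-alpha, chromosome 9, 45929619 to 45936058, minus) bind actin filaments. Tpm1 (chromosome 9, 67022590 to 67049406, minus) and Tpm2 (chromosome 4, 43514711 to 43523765, minus) encode tropomyosins that lie along actin and are also made in many non-muscle cells. Lmod1 (chromosome 1, 135324807 to 135368065, plus) encodes leiomodin, which nucleates actin filaments in smooth muscle. Values are 1 total per gene, not split by isoform. Of the 50-base windows in their protein-coding transcripts, 0.326% of Acta2's also occur in Gm8399 and 0.391% of Myh11's in Myh9, and none of the other 8 genes shares a window with another gene.

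The CArG box was searched in the 250 bases before the RefSeq start, in RefSeq promoter sequences of build GRCm38.p6, on both strands. Of the 10 genes, 7 matched an entry (Acta2, Cnn1, Cnn2, Tpm1, Tpm2, Myl9 and Lmod1). All letters of the box were found for 2 of the 7, Cnn2 and Myl9, and in 482 of 32851 promoters overall (1.47%). With 1 mismatch allowed in the central 6 bases the count was 3 of 7, with Acta2 added, against 2823 promoters overall (8.59%). These 3 genes are shown as the ones with a box. Cnn1, Tpm1, Tpm2 and Lmod1 had no box in this window at either setting, and Actg2, Tagln and Myh11 could not be searched. All 10 genes were called lower with either fatty acid in the comparisons that follow, and a link to the box was not tested. Capitals mark the box in each stretch, and the first 2 and the last sequence hold 1 mismatch.
Acta2, chr19:34255438-34255467, minus strand: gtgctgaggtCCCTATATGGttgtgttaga
Acta2, chr19:34255388-34255417, minus strand: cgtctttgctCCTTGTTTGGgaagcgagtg
Cnn2, chr10:79988484-79988583, plus strand: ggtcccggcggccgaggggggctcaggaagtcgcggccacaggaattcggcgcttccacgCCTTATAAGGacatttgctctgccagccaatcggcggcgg
Myl9, chr2:156775258-156775357, plus strand: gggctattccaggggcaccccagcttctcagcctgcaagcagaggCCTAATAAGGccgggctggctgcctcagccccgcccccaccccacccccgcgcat
Myl9, chr2:156775320-156775419, plus strand: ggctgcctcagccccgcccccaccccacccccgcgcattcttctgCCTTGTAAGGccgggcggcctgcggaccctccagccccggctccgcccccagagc
The Acta2 boxes lay 84 to 75 and 34 to 25 bases before the RefSeq start, the Cnn2 box 56 to 47, and the Myl9 boxes 161 to 152 and 99 to 90. For these 3 genes the RefSeq start lies inside the GENCODE gene, so the distances are not from the gene ends given above, and both Acta2 stretches overlap a GENCODE Acta2 exon. A match describes these letters only and was not read as a bound site.

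Levels are in TPM (a relative transcript abundance scaled for length and library total), so genes can be compared within a library. Total counts were 68760648 to 76643829 in the 13 libraries of the second cohort, and the depth of the others is unknown because only TPM was used for them. The Apoe check matched the labels: Apoe stood at 4234 to 5024 TPM in untreated wild-type and 40.4 to 47.1 TPM in untreated knockout astrocytes, and at 830 to 1467 TPM in KA brain and 29.7 to 58.6 TPM in Apoe knockout brain with KA. The knockout astrocyte groups differed among themselves. Apoe was at 5.36 to 7.66 TPM with palmitic acid, 68.25 to 72.88 with oleic acid and 113 to 118 with neuronal medium. Adora2a, the gene of the A2a receptor, overlapped between the libraries labelled A2aR knockdown (1.75 to 2.15 TPM) and those with KA alone (1.32 to 2.90 TPM). Sex-linked transcripts separated some groups. In the second cohort the untreated libraries held 122 to 145 TPM of Xist and the KA libraries 0.03 to 0.27, so sex and KA cannot be told apart there. In wild-type astrocytes the Y-linked Ddx3y was at 14.9 to 19.1 TPM untreated, 0.52 to 1.35 with oleic acid and 3.22 to 4.49 with palmitic acid, and Xist at 30.7 to 36.8, 6.57 to 15.03 and 15.5 to 21.0 TPM. In knockout astrocytes Ddx3y was at 31.3 to 33.5 TPM untreated, 14.3 to 15.2 with oleic acid and 1.86 to 15.7 with palmitic acid, and Xist at 2.79 to 3.81, 2.12 to 2.72 and 0 to 0.05 TPM. In both genotypes the fatty acid ranges of Ddx3y and Xist did not overlap the untreated ones. Differences between the cultures and fatty acid thus cannot be told apart there. The part of the Ddx3y and Xist shifts in the results was not tested. Knockout cells given palmitic acid stood apart, with 12057 to 12915 genes at 1 TPM or more against 14422 to 14488 in untreated knockout cells. A bulk library cannot tell fewer cells of a type from less RNA per cell, in any comparison below.

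In untreated wild-type astrocytes several contractile genes were among the most abundant transcripts measured. Acta2 had 4045, 4133 and 3743 TPM in the 3 libraries and ranked 22 among all genes by mean TPM. Tagln had 3124, 3136 and 2886 TPM (rank 28), and Tpm1 had 2173, 2132 and 2074 TPM (rank 43). Myl9 (1196 ± 54.8 TPM, SD, n = 3; rank 89), Cnn2 (611 ± 28.9), Cnn1 (563 ± 16.7) and Tpm2 (334 ± 16.8) were lower. The other actin isoform, Actg2, was at 105 ± 5.64 TPM and Lmod1 at 52.8 ± 2.23 TPM. Myh11, which defines mature smooth muscle, was at 1.64, 1.46 and 1.61 TPM and ranked 13631. Actin, calponin, transgelin and light chain transcripts were thus present at high level with very little of the heavy chain. The 10 genes made up 1.15% to 1.24% of all TPM in these libraries, against 0.0213% to 0.0456% over the brain libraries, whose tables were normalised separately.

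**Figure D1:**
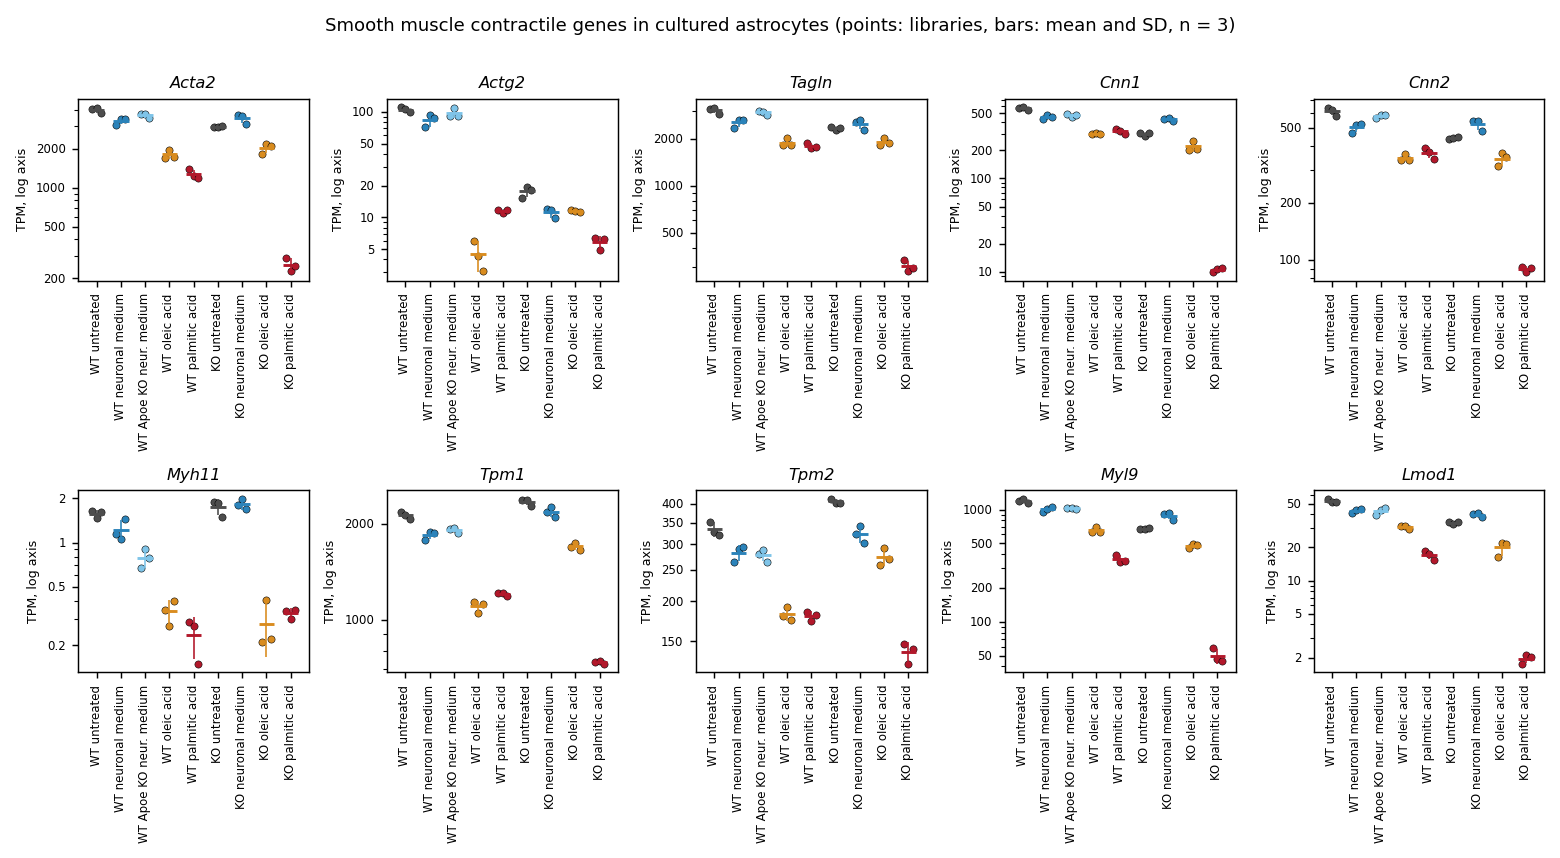
TPM of the 10 genes on a log axis in the 27 astrocyte libraries, 1 point per library, grouped by genotype and treatment. Knockout cells given palmitic acid are lowest for 8 of the genes, and the exceptions are Actg2, lowest with oleic acid in wild-type cells, and Myh11, which is below 2 TPM in every library.

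Cells in the untreated wild-type group also held transcripts of other cell types. The summed level of 9 astrocyte markers was 2130 to 2390 TPM, that of 9 pericyte markers 74.9 to 81.4 TPM and that of 7 fibroblast and meningeal markers 902 to 966 TPM. Of the pericyte markers Higd1b was at 0 in all 3 libraries. Which cells in these cultures carried the contractile transcripts was not tested.

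Oleic acid on wild-type astrocytes lowered all 10 contractile genes. Acta2 was at 1711, 1971 and 1742 TPM with oleic acid, below each of the untreated libraries, a change of -1.14 ± 0.09 (SE) in log2(TPM + 1) with adjusted p = 4.56e-10 (limma, Benjamini-Hochberg over 16161 genes, as for the other astrocyte comparisons). Actg2 had 110, 106 and 99.3 TPM untreated and 5.99, 4.30 and 3.10 TPM with oleic acid. Its mean fell 23.6-fold (log2 change -4.31 ± 0.14, adjusted p = 7.94e-16), so the isoforms of smooth muscle actin moved by very different amounts. The remaining changes lay between -0.69 ± 0.07 for Tagln and -0.95 ± 0.04 for Tpm1. For Myh11 the change of -0.94 ± 0.10 went from 1.57 to 0.34 TPM on average. Across all genes tested 28.6% were called lower, and the median change was -0.88 for the 10 genes and 0.00 over all genes.

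Palmitic acid on wild-type cells, compared with the same untreated libraries, also lowered all 10, while 33.1% of all genes were called lower. Acta2 was at 1393, 1226 and 1192 TPM, a change of -1.65 ± 0.09 (adjusted p = 4.80e-13). The light chain gene Myl9 was at 395, 341 and 345 TPM against 1203, 1248 and 1139 untreated (-1.73 ± 0.08, adjusted p = 3.59e-14). Lmod1 fell from 52.8 ± 2.23 to 17.1 ± 1.49 TPM, by -1.58 ± 0.09 in log2. These 3 genes and Actg2 (-3.09 ± 0.14) had the largest changes in log2(TPM + 1). Myh11 changed by -1.06 ± 0.10 on that scale, which understates low genes, and its mean went from 1.57 to 0.237 TPM, 6.63-fold lower. Tagln (-0.76 ± 0.07), Cnn1 (-0.81 ± 0.07), Cnn2 (-0.73 ± 0.06), Tpm1 (-0.82 ± 0.04) and Tpm2 (-0.89 ± 0.06) formed a narrow band. The median was -0.97 for the 10 genes and -0.08 over all genes. Because both fatty acids were set against 1 group of untreated libraries, these changes are not independent.

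Marker sums moved in the same comparisons. The 9 astrocyte markers summed to 1085 to 1118 TPM with oleic acid and to 656 to 804 TPM with palmitic acid, where all 9 were called lower. With oleic acid 8 of the 9 were called lower and 1 higher. The pericyte sum was 57.0 to 65.7 TPM with oleic acid (Abcc9 and Higd1b at 0) and 30.6 to 37.2 TPM with palmitic acid (Higd1b at 0). The fibroblast sum was 227 to 237 TPM with oleic acid (Slc6a13 at 0) and 282 to 308 TPM with palmitic acid (Dpt and Slc6a13 at 0). The part of these shifts in the contractile changes was not tested.

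In Apoe knockout astrocytes palmitic acid gave the lowest levels among the 9 astrocyte groups for 8 of the 10 genes. Cnn1 had 303, 285 and 306 TPM untreated and 9.86, 10.8 and 11.0 TPM with palmitic acid, a mean 28.2-fold lower (log2 change -4.69 ± 0.07, adjusted p = 5.62e-22). Acta2 went from 2941, 2966 and 2969 TPM to 289, 227 and 248 TPM (-3.54 ± 0.09, adjusted p = 7.13e-19). Myl9 went from 667, 676 and 689 TPM to 57.8, 46.4 and 44.3 TPM (-3.76 ± 0.08, adjusted p = 5.50e-20). The treated and untreated libraries were far apart for each of them. Lmod1 fell 17.1-fold to 1.96 ± 0.176 TPM (-3.55 ± 0.09), and Tagln 7.68-fold to 305 ± 26.2 TPM (-2.94 ± 0.07). Cnn2 (-2.29 ± 0.06) and the tropomyosins Tpm1 (-1.67 ± 0.04) and Tpm2 (-1.55 ± 0.06) changed less. Actg2 changed by -1.46 ± 0.14 and Myh11 by -1.05 ± 0.10. Their untreated knockout levels were already low, and the ratio of mean TPM was 3.04-fold for Actg2 and 5.30-fold for Myh11, against 4.93-fold for Cnn2.

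All 10 genes were called lower in this comparison, in which 55.4% of all genes were. Lower calls were 73.5% of the 12168 genes called as deposited and 52.1% of 12019 after median-ratio scaling. The median change over all genes was -0.47 as deposited and -0.08 after median-ratio scaling of the libraries, and that of the 10 genes -2.62 and -2.06. After scaling all 10 remained called, with Cnn1 at -4.17 and Acta2 at -2.98. In the same libraries the astrocyte markers stood at 69.4 to 86.7 TPM against 482 to 496 TPM untreated, with 9 of 9 called lower. Pericyte markers stood at 45.1 to 49.5 TPM against 83.9 to 91.1 TPM (Kcnj8, Abcc9 and Higd1b at 0) and fibroblast markers at 385 to 395 TPM against 902 to 954 TPM. The mitochondrial share of TPM was 1.51% to 2.94% against 6.41% to 6.64%. Their part in the result was not tested.

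Oleic acid on knockout cells lowered all 10 genes by smaller amounts, where 20.1% of all genes were called lower. Acta2 had 1826, 2192 and 2099 TPM, -0.54 ± 0.09 from the untreated knockout cells with adjusted p = 5.82e-05. Actg2 had 11.8, 11.4 and 11.2 TPM against 15.3, 19.5 and 18.2 (-0.58 ± 0.14, adjusted p = 0.00326). Tagln had the smallest change, -0.30 ± 0.07 (adjusted p = 0.00146), and its call was lost with median-ratio scaling (adjusted p = 0.0778). Lmod1 (-0.73 ± 0.09) and Myh11 (-1.10 ± 0.10, from 1.75 to 0.28 TPM) changed most. The median was -0.52 for the 10 genes and -0.03 over all genes. Astrocyte markers summed to 491 to 507 TPM, overlapping the untreated knockout range.

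**Figure D2:**
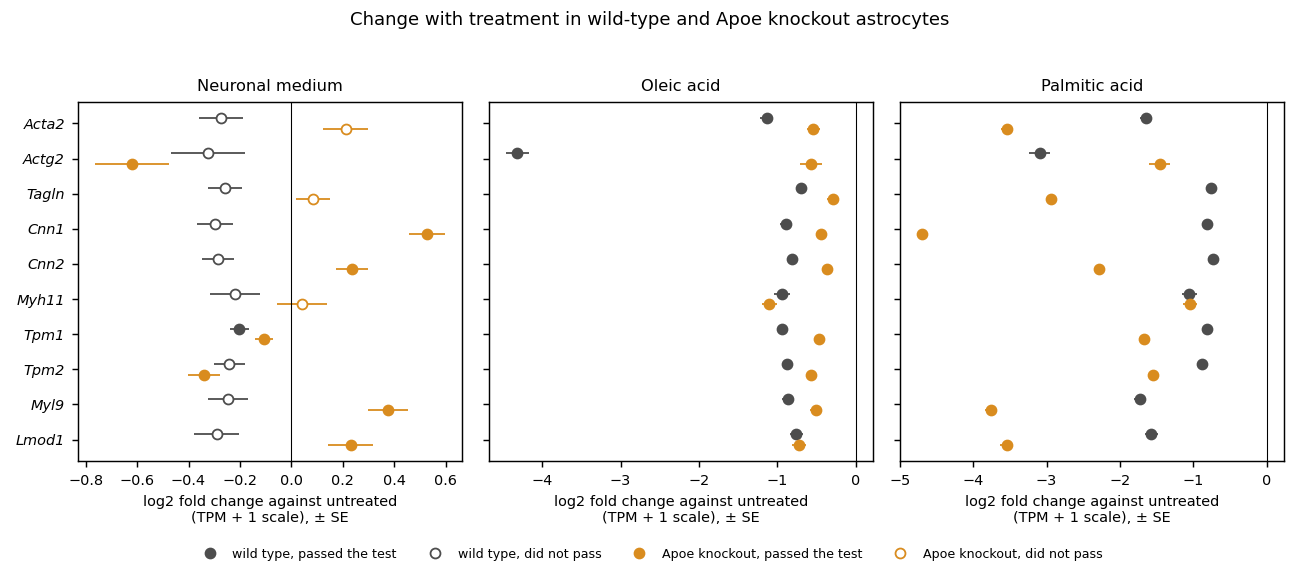
Change in log2(TPM + 1) against untreated cells of the same genotype, with its SE, for the 10 genes under neuronal medium, oleic acid and palmitic acid, wild-type and Apoe knockout astrocytes side by side. With palmitic acid the knockout points lie far below the wild-type points for Cnn1 (-4.69 against -0.81), and with oleic acid the wild-type point of Actg2 (-4.31) lies far below the knockout point (-0.58).

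Whether the genotypes differed in response was tested by the difference of the changes, knockout minus wild type. With palmitic acid 8 genes fell further in knockout cells, where 43.2% of all genes had a lower interaction. Lower calls were 75.1% of the genes called as deposited and 47.9% after median-ratio scaling, and the median over all genes was -0.35 and 0.03. Cnn1 had a difference of -3.89 ± 0.10 (adjusted p = 1.20e-17), Tagln -2.18 ± 0.09, Myl9 -2.03 ± 0.11, Lmod1 -1.97 ± 0.12, Acta2 -1.89 ± 0.12 and Cnn2 -1.56 ± 0.09. Tpm1 (-0.85 ± 0.05) and Tpm2 (-0.66 ± 0.09) differed less, and Tpm2 was not called after median-ratio scaling (-0.18, adjusted p = 0.333). Actg2 went the other way, 1.63 ± 0.20 (adjusted p = 7.77e-07), as did 14.3% of all genes. For Myh11 the difference was 0.01 ± 0.14 (adjusted p = 0.952). With oleic acid 8 genes fell less in knockout cells, against 13.8% of all genes called in that direction. Actg2 led with 3.74 ± 0.20 (adjusted p = 5.73e-12), followed by Acta2 with 0.60 ± 0.12. Tagln, Cnn1, Cnn2, Tpm1, Tpm2 and Myl9 had differences of 0.30 to 0.48. The calls of Tpm2 and Myl9 were lost after median-ratio scaling (adjusted p = 0.0885 and 0.0959). Lmod1 (0.03 ± 0.12) and Myh11 (-0.16 ± 0.14) did not pass. The palmitic and oleic acid differences rest on shared untreated libraries.

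Without treatment, knockout astrocytes had lower levels of 7 genes and higher levels of 2, while 21.1% of all genes were called lower and 23.9% higher. Actg2, at 15.3, 19.5 and 18.2 TPM in knockout cells, was 5.96-fold below its wild-type mean (-2.52 ± 0.14, adjusted p = 2.92e-12). Cnn1 had 303, 285 and 306 TPM against 564, 579 and 545 in wild type (-0.92 ± 0.07, adjusted p = 3.59e-10). Myl9 had 667, 676 and 689 TPM against 1203, 1248 and 1139 (-0.82 ± 0.08, adjusted p = 1.32e-08). Lmod1 (-0.64 ± 0.09), Cnn2 (-0.47 ± 0.06), Acta2 (-0.42 ± 0.09) and Tagln (-0.38 ± 0.07) were also lower. The tropomyosins were the 2 higher genes: Tpm1 had 2375, 2381 and 2282 TPM in knockout cells (0.14 ± 0.04, adjusted p = 0.00272) and Tpm2 415, 403 and 403 TPM (0.29 ± 0.06, adjusted p = 0.000589). Neither tropomyosin was called after median-ratio scaling (adjusted p = 0.300 and 0.0682). Myh11 had 1.88, 1.87 and 1.5 TPM and did not pass (0.10 ± 0.10, adjusted p = 0.462). All 9 astrocyte markers were lower in the knockout, Gfap by -4.02 in log2, whereas the fibroblast sum of 902 to 954 TPM overlapped the wild-type range. Xist was at 2.79 to 3.81 TPM in knockout and 30.7 to 36.8 TPM in wild-type cells, so sex composition of the cultures and genotype cannot be told apart.

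In wild-type cells given medium from neurons all 10 genes were lower by sign, but only Tpm1 passed: 1786, 1887 and 1871 TPM against 2173, 2132 and 2074 (-0.20 ± 0.04, adjusted p = 0.0406). Of all genes 0.0186% were called lower. The others changed by -0.22 to -0.32, with adjusted p from 0.152 to 0.761, although all 10 had an unadjusted p under 0.05, as did 1031 of 16161 genes. The median change was -0.27 for the 10 genes and 0.03 over all genes. Tpm1 lost its call with a pseudocount of 0.1 (adjusted p = 0.0514), with median-ratio scaling (0.618) and in a fit of only the groups compared (0.309). It was also lost without any of untreated library 1, 2 or 3 or medium library 1 or 3 (adjusted p = 0.0747 to 0.238).

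In knockout cells neuronal medium raised 4 genes, where 18.7% of all genes were called higher, and lowered 3, where 12.6% were called lower. Cnn1 had 436, 446 and 409 TPM against 303, 285 and 306 untreated (0.53 ± 0.07, adjusted p = 3.21e-06), and Myl9 had 909, 926 and 809 TPM against 667, 676 and 689 (0.38 ± 0.08, adjusted p = 0.000624). Cnn2 rose by 0.24 ± 0.06 (adjusted p = 0.00524) and Lmod1 by 0.23 ± 0.09 (adjusted p = 0.0494). Actg2 fell to 11.9, 11.7 and 9.78 TPM (-0.62 ± 0.14, adjusted p = 0.00175), Tpm2 by -0.34 ± 0.06 (adjusted p = 0.000175) and Tpm1 by -0.11 ± 0.04 (adjusted p = 0.0288). Thus the gamma-actin and the tropomyosins moved against the calponins and the light chain. Acta2 (0.21 ± 0.09, adjusted p = 0.0695), Tagln (0.08 ± 0.07) and Myh11 (0.04 ± 0.10) did not pass, though Acta2 passed without medium library 3 (adjusted p = 0.0267) and when the other groups were left out of the fit (0.0275). The replicate block ended the Lmod1 call (adjusted p = 0.0559), as did leaving out any 1 untreated or medium library (0.0586 to 0.145). Tpm1 lost its call without untreated library 1 or 2 or medium library 1 or 3 (0.0666 to 0.144), without the filter (0.0613) and when the other groups were left out of the fit (0.0531), and median-ratio scaling left only Cnn1, Actg2 and Tpm2. All 9 astrocyte markers rose in the same comparison, to a sum of 1170 to 1267 TPM. Xist was at 7.12 to 8.55 TPM with medium and 2.79 to 3.81 TPM untreated, without overlap. Ddx3y was at 22.9 to 31.0 and 31.3 to 33.5 TPM, also without overlap. Sex composition of the cultures and medium thus cannot be told apart here, nor in the interaction that uses these libraries.

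The response to neuronal medium differed between genotypes for 6 genes, all with a higher change in knockout cells, against 11.6% of all genes. The differences were 0.83 ± 0.10 for Cnn1 (adjusted p = 2.19e-06), 0.62 ± 0.11 for Myl9, 0.52 ± 0.09 for Cnn2, 0.52 ± 0.12 for Lmod1, 0.48 ± 0.12 for Acta2 (adjusted p = 0.00695) and 0.34 ± 0.09 for Tagln (adjusted p = 0.0130). Acta2 and Tagln were not called after median-ratio scaling (adjusted p = 0.0963 and 0.199). Medium from Apoe knockout neurons, set against medium from normal neurons on wild-type cells, changed 0 of the 10 genes, with 1.42% of all genes called in limma's test. Acta2 had 3691, 3711 and 3442 TPM against 3054, 3407 and 3410, with no overlap (0.14 ± 0.09, adjusted p = 0.568). Tagln (0.21 ± 0.07, adjusted p = 0.140), Cnn2 (0.20 ± 0.06, adjusted p = 0.130) and Myh11 (-0.31 ± 0.10, adjusted p = 0.148) were the 3 genes with an unadjusted p under 0.05, as were 2080 of 16161 genes.

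Ordered by mean over the 9 astrocyte groups, Acta2 was highest in untreated wild-type cells. The 3 groups given neuronal medium came next and each overlapped the next of them (3291 to 3614 TPM), followed by untreated knockout cells (2959 ± 15.1). The oleic acid groups overlapped each other (2039 ± 190 TPM in knockout and 1808 ± 142 in wild type), and palmitic acid was lowest in wild type (1270 ± 108) and then knockout (255 ± 31.4). Actg2 kept another order. Its 3 highest groups were wild-type cells without fatty acid (84.4 to 105 TPM), every knockout group was at or below 17.7 TPM, and the lowest, wild-type cells with oleic acid (4.46 ± 1.45 TPM), overlapped knockout cells with palmitic acid (5.80 ± 0.786 TPM). From the lowest to the highest of the 27 libraries Cnn1 spanned 58.7-fold, Actg2 35.6-fold, Lmod1 31.5-fold, Myl9 28.1-fold and Acta2 18.2-fold. The tropomyosins spanned 3.3-fold for Tpm1 and 3.2-fold for Tpm2.

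Ratios of paralogs in TPM show the uneven changes directly. Acta2 was 37.8 ± 1.15 times Actg2 in untreated wild-type cells and 39.3 ± 3.30 times with neuronal medium. With oleic acid the ratio was 435 ± 140, with palmitic acid 111 ± 8.04 and in untreated knockout cells 169 ± 20.4. It was 44.0 ± 3.43 in knockout cells with palmitic acid, where both actins were low. Cnn1 over Cnn2 was 0.922 ± 0.0271 in untreated wild-type cells, 0.675 ± 0.0239 in untreated knockout cells and 0.118 ± 0.00900 in knockout cells with palmitic acid. Acta2 over Myh11 was 2541 ± 261 in untreated wild-type astrocytes and 5.20 ± 1.24 in untreated brain of the CNO set. Astrocyte cultures and brain thus held the actin and the heavy chain in very different proportions.

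**Figure D3:**
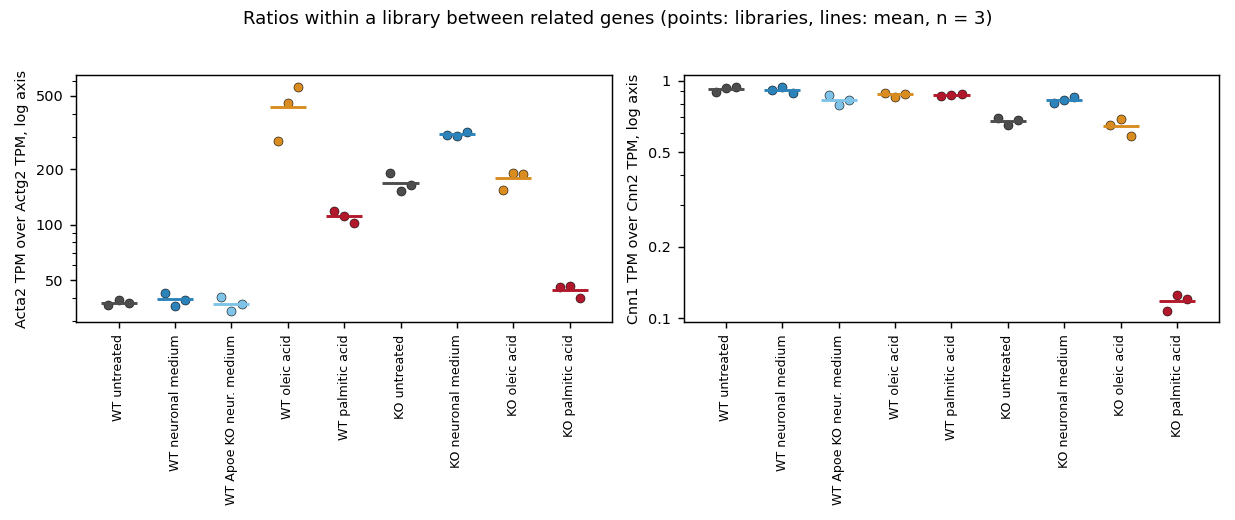
Ratios of TPM between paired genes, Acta2 over Actg2 and Cnn1 over Cnn2, on log axes, with 1 point per library in each astrocyte group. Acta2 over Actg2 averages 37.8 in untreated wild-type cells and 435 in wild-type cells with oleic acid. Cnn1 over Cnn2 is lowest among the astrocyte groups in knockout cells with palmitic acid.

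Other genes of the contractile programme were followed by lists. Of 12 other smooth muscle contraction genes 9 were tested in astrocytes. With oleic acid on wild-type cells 6 were lower and 0 higher (list median -1.11), led by Itga8, an integrin (-2.66), the thin-filament protein Cald1 (-1.44) and Nexn (-2.51). Palmitic acid lowered 7 and raised 1 (median -1.25), with Synpo2 at -2.09 and Csrp1 at -0.97. In knockout cells oleic acid lowered 7 (median -0.44) and palmitic acid 8 (median -0.97), with Nexn at -3.07 and Cald1 at -1.87. Between the untreated genotypes 2 were lower, 1 was higher and 6 did not pass. The list medians can be set beside those of all genes given above, the largest of which was -0.47 with palmitic acid on knockout cells. Of all genes, 28.6% were called lower and 31.2% higher with oleic acid on wild-type cells, and 33.1% and 26.8% with palmitic acid. On knockout cells 20.1% were lower with oleic acid and 55.4% with palmitic acid. Between the untreated genotypes 21.1% were lower and 23.9% higher.

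Transcripts of SRF and its cofactors rose in some comparisons and fell in others, and their part in the contractile changes was not tested. Of SRF and its cofactors 3 of 4 were tested. In wild-type cells, oleic acid raised Srf (0.36) and the coactivator Mrtfa (0.24), and palmitic acid raised Mrtfa (0.46). In knockout cells palmitic acid lowered Srf (-0.72) and Mrtfb (-0.38), and oleic acid lowered Srf (-0.58). Untreated knockout cells had more Srf (0.38) and Mrtfa (0.78) than wild type. Myocd, the smooth muscle coactivator, was at 0.0533 ± 0.0493 TPM in untreated wild-type cells and was not tested; it is named outside the rule for list genes, after its values were seen.

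Among 13 cytoskeletal and matricellular targets of SRF or YAP, 9 were lower and 2 higher with oleic acid on wild-type cells, among them Fhl2 (-1.69) and Ccn2 (-1.10). Palmitic acid lowered 8 and raised 3, with the fibronectin receptor subunit Itga5 at 1.76 and Ccn2 at -1.49. In knockout cells 10 were lower with each fatty acid, with Fhl1 at -2.92 and the focal adhesion genes Vcl (-1.94) and Actn1 (-1.54) under palmitic acid. Of 13 non-muscle relatives, 7 were lower and 2 higher with oleic acid on wild-type cells, including Tpm4 (-0.91) and the ubiquitous beta-actin gene Actb (-0.45). Palmitic acid on knockout cells lowered 12 of the 13 (median -1.12), with Myh10 at -3.22, Actg1 at -1.59 and Cnn3 at -1.50. In the TGF-beta pathway, oleic acid on wild-type cells gave 7 of 17 higher, such as Tgfb1 (1.89) and Ltbp1 (1.42), and 6 lower, such as Tgfb2 (-1.58). Beside these counts, 31.2% of all genes were called higher and 28.6% lower. Untreated knockout cells had 9 of the 17 higher than wild type, Ltbp1 by 2.95 and Tgfb1 by 2.17, and 3 lower. The counts of all these lists are to be set beside the shares of all genes given with the contraction genes above.

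Over the 27 astrocyte libraries the non-member genes most like Acta2 in log2(TPM + 1) were Actb (Pearson r = 0.989), the water channel gene Aqp4 (0.978), Cnn3 (0.977), Bex3 (0.973) and Ncam1 (0.973), among 7838 candidates. For Tagln they were Mcam (0.981), Fhl1 (0.980), Bex3 (0.978), Actn1 (0.978) and Actb (0.975). Within the 10 genes, Myl9 and Lmod1 were the most alike (0.995). Actg2 had r of 0.624 with Acta2, and Myh11 had 0.638. These are descriptions over libraries that share 9 groups.

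In brain Acta2 and Tagln stood far below their levels in the cultures, and Myh11 above, in tables normalised separately. In untreated brain of the CNO set, Acta2 was at 34.0, 58.9 and 44.2 TPM, and with CNO at 27.9, 22.4 and 30.3 TPM. Tagln was at 21.0, 32.2 and 21.0 TPM untreated and 42.4, 37.0 and 58.7 TPM with CNO. Neither group overlapped the other for these 2 genes, and they went in opposite directions. Myh11, at 8.81, 9.34 and 8.13 TPM untreated and 5.44, 4.83 and 5.02 TPM with CNO, was the 1 gene of 9 tested to pass (-0.68 ± 0.13, adjusted p = 0.0281, limma over 15453 genes), where 0.233% of all genes were called lower. Tagln (0.87 ± 0.22, adjusted p = 0.0777) and Acta2 (-0.72 ± 0.20, adjusted p = 0.113) did not pass. For 6 of the 9 tested the unadjusted p was under 0.05, as for 2481 of all genes, and the median was -0.19 against 0.04.

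The Myh11 call was lost without untreated library 1, 2 or 3 or CNO library 2 or 3 (adjusted p = 0.0767 to 0.131) and without the filter on low values (0.0903), and held without CNO library 1 and with the replicate block (0.0372). Cnn2 (0.37 ± 0.16), Tpm1 (0.28 ± 0.12), Tpm2 (-0.38 ± 0.15), Lmod1 (-0.31 ± 0.16), Cnn1 (-0.19 ± 0.30) and Myl9 (-0.08 ± 0.14) had adjusted p of 0.259 to 0.844. Actg2, at 0.27 to 0.80 TPM, was below the filter. Pericyte markers overlapped (183 to 195 TPM untreated, 169 to 195 TPM with CNO), astrocyte markers stood at 1892 to 2141 TPM untreated and 4080 to 4256 TPM with CNO, and microglia markers at 202 to 215 and 477 to 588 TPM. The astrocyte sum does not describe each astrocyte marker. Gfap rose most (log2 change 3.04), some rose less, such as Aldh1l1 (0.96) and Aqp4 (1.02), and the rest did not pass. The part of these marker shifts in the change of Myh11 was not tested. Of all genes 3.46% were called higher with CNO and 3.70% in either direction. In the lists, 3 of 13 non-muscle relatives rose, Cnn3 (1.19), Tagln2 (1.06) and Myh9 (0.60), and 10 did not pass. Of 12 cytoskeletal and matricellular targets 3 rose, Ccn1 (1.77), Flna (0.95) and Tgfb1i1 (0.70), and 9 did not pass. Of 11 other smooth muscle contraction genes 0 passed in limma, and 1 had an unadjusted p under 0.05.

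**Figure D4:**
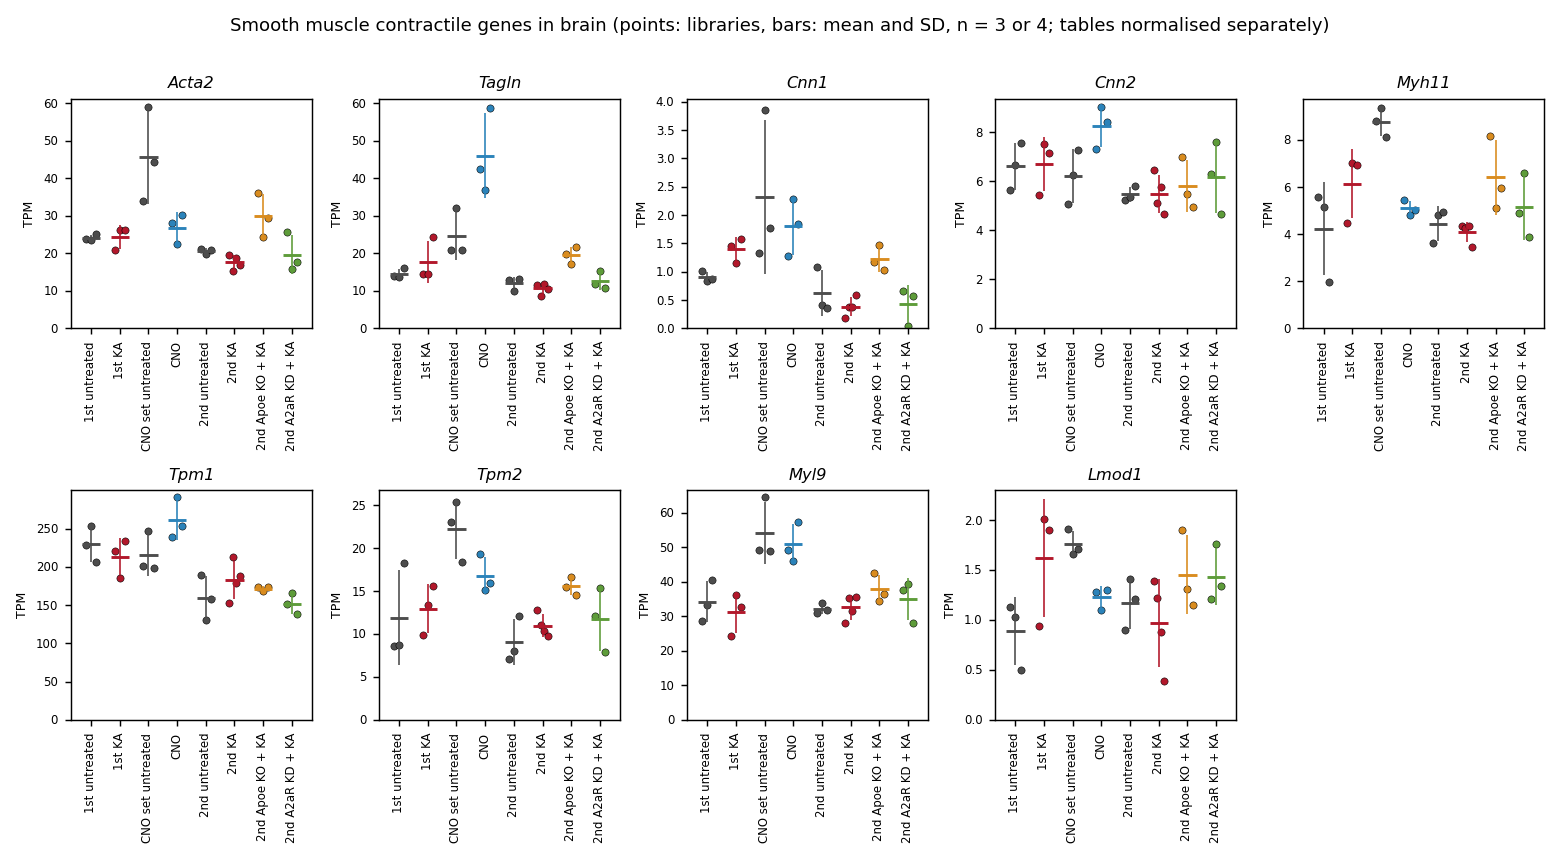
TPM of 9 genes in the 25 brain libraries on linear axes, 1 point per library, by cohort and group (Actg2 is left out because it is near 0). In the CNO set Myh11 lies between 8.13 and 9.34 TPM untreated and between 4.83 and 5.44 TPM with CNO, and in the second cohort Tagln lies between 17.3 and 21.6 TPM in Apoe knockout brain with KA, above the 4 KA libraries.

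No contractile gene passed the test between KA and untreated brain in either cohort. In the first cohort 0 of 9 passed in limma's test, with 0.183% of all genes called (28 genes), and 0 of the 9 had an unadjusted p under 0.05, against 2069 of 15331 genes. Acta2 was at 23.9, 23.6 and 25.1 TPM untreated and 20.8, 26.2 and 26.2 TPM with KA (0.00 ± 0.17, adjusted p = 0.990). Cnn1 was at 1.01, 0.83 and 0.87 TPM untreated and 1.46, 1.15 and 1.58 TPM with KA (0.33 ± 0.18, adjusted p = 0.489). Myh11 was at 5.57, 5.14 and 1.96 TPM untreated, so the third library, whose mitochondrial share was 9.01% against 16.1% and 15.9%, lay far below the others. The Myh11 difference was 0.51 ± 0.36 with it and 0.15 without it. The median was 0.17 for the 9 genes and 0.25 over all genes, or -0.11 and -0.02 after median-ratio scaling, so the sign of the 9-gene median depended on the scaling. Fibroblast markers were at 25.6 to 42.0 TPM untreated and 63.4 to 71.3 TPM with KA.

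In the second cohort 0 of the 10 passed between KA and untreated brain (edgeR quasi-likelihood test over 23318 genes, 0.0558% called). DESeq2 also called 0 of the 10, and 1 had an unadjusted p under 0.05 in edgeR, as did 1566 of all genes. This was Tpm2, at 7.14, 7.97 and 12.1 TPM untreated and 12.8, 11.0, 10.3 and 9.82 TPM with KA (log2 fold change 0.41 ± 0.17, adjusted p = 0.707). Acta2 was at 21.2, 19.9 and 20.9 TPM untreated and 19.5, 15.3, 18.8 and 17.0 TPM with KA, without overlap (-0.19 ± 0.14, adjusted p = 0.903). Each of the other 8 had an adjusted p of 0.905 or more. Actg2 had 0 to 15 counts in these libraries, and no fold is given for it.

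Apoe knockout brain with KA was set against KA brain, and 0 of the 10 passed in edgeR, with 0.112% of all genes called. Tagln was at 11.7, 8.72, 11.7 and 10.6 TPM with KA (608, 415, 535 and 541 counts) and 19.8, 17.3 and 21.6 TPM in the knockout with KA (1029, 954 and 1199 counts). Its log2 fold change was 0.96 ± 0.17 with adjusted p = 0.0553. Acta2 was at 19.5, 15.3, 18.8 and 17.0 TPM with KA and 36.2, 24.4 and 29.4 TPM in the knockout (0.76 ± 0.14, adjusted p = 0.108). Every knockout library lay above every KA library for both genes. Myh11 (0.60 ± 0.17, adjusted p = 0.298), Tpm2 (0.52 ± 0.17, adjusted p = 0.368) and Cnn1 (1.43 ± 0.70, adjusted p = 0.557) did not pass either. Of the 10 genes 4 had an unadjusted p under 0.05, as did 2175 of all genes, and the median was 0.55 against -0.01. DESeq2 called 2 of the 10, Tagln (adjusted p = 7.56e-05) and Acta2 (adjusted p = 0.000672), with 278 of all genes called by DESeq2 and 26 by edgeR. Fibroblast markers stood at 43.2 to 55.7 TPM with KA and 69.5 to 75.9 TPM in the knockout, and pericyte markers at 191 to 218 and 215 to 236 TPM. Skeletal and cardiac muscle markers stood at 22.2 to 101 and 99.8 to 117 TPM. Their part in the difference was not tested.

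The libraries labelled A2aR knockdown with KA, compared with the same KA libraries, also had 0 of 10 genes past the edgeR test, with 0.0386% of all genes called. DESeq2 called 0 as well, and 1 gene, Tagln, had an unadjusted p under 0.05 in edgeR, as did 2156 of 23318 genes. Tagln was at 11.8, 15.3 and 10.8 TPM (0.38 ± 0.17, adjusted p = 0.512), overlapping the KA range. Acta2 was at 25.6, 15.8 and 17.7 TPM, with 1 library above all KA libraries and the others within them (0.18 ± 0.14, adjusted p = 0.768). Over the 13 second-cohort libraries, the genes most like Acta2 were Gpr162 (r = 0.905), Blvrb (0.883), Pmvk (0.858), Sec11c (0.839) and Itm2a (0.834), among 9033 candidates. Those most like Tagln were Gyg (0.868), Blvrb (0.855), Dmpk (0.842), H2aw (0.842) and Hrk (0.841). In the lists, 0 genes other than the targeted Apoe passed in the second cohort or in the first.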

How the data were processed

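Per the labels' protocols, Trizol was used for extraction and 1 ug of RNA went into each TruSeq library. The tools named, without role or version, per the submitters' processing notes are HISAT2, StringTie, RSEM and the build mm10. The authors deposited TPM for the first cohort, the CNO set and the astrocytes, a unit inferred from the column sums, and counts with TPM for the second cohort. TPM values are relative, so a large change in a few abundant genes moves all others. TPM tables were tested with limma 3.58.1 on log2(TPM + 1), keeping a gene if 3 or more libraries reached 1 TPM, with 1 fit per table. A fold change on that scale understates the change of low genes. Deposited counts were tested with edgeR 4.0.16 (TMM, quasi-likelihood, R 4.3.3), all 4 groups in 1 fit. P-values were adjusted by Benjamini-Hochberg over all genes tested, with a threshold of 0.05 over 16 comparisons and 3 of them interactions. The fits were tested on simulated data. Alternatives were other pseudocounts, filters and scalings, DESeq2 1.42.0, a replicate block and leaving out each library. Same-numbered libraries deviated together only in the CNO set (correlations 0.119 to 0.244 over 3 pairs). All 10 genes are named whatever their values, and from each list up to 3 genes with the smallest p past the test. Likeness used candidates above the median level that are not predicted genes. The genes and lists were chosen with earlier results of these data known. Counts of libraries within a group of the second cohort differed by a chi-square of 57.2 to 109 per degree of freedom, so none repeated another of its group.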

Additional observations from a re-analysis of the deposited data

Results flagged for a closer look

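In the second cohort the 4 KA libraries had Myh11 at 4.35, 4.27, 4.34 and 3.46 TPM, and the lowest was separated from the next by 0.911 of the whole range, above the critical value of Dixon's test for a group of 4. Chance alone flags a share of about 0.05 of groups.

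The change with neuronal medium differed between knockout and wild-type astrocytes (knockout minus wild type, log2 scale) for Acta2 by 0.48, Tagln by 0.34, Cnn1 by 0.83, Cnn2 by 0.52, Myl9 by 0.62 and Lmod1 by 0.52. The change with oleic acid differed for Acta2 by 0.60, Actg2 by 3.74, Tagln by 0.40, Cnn1 by 0.45, Cnn2 by 0.45, Tpm1 by 0.48, Tpm2 by 0.30 and Myl9 by 0.36. With palmitic acid the differences were -1.89 for Acta2, 1.63 for Actg2, -2.18 for Tagln, -3.89 for Cnn1, -1.56 for Cnn2, -0.85 for Tpm1, -0.66 for Tpm2, -2.03 for Myl9 and -1.97 for Lmod1. Each passed the interaction test of limma at an adjusted p of 0.05, and all 3 families share the untreated libraries.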

How the results depend on the processing

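No direction of a called gene reversed under any alternative run. Of 1987 recomputed single-gene changes, 1894 kept their direction and side of the threshold, 42 lost their call, 4 gained one and 47 moved without a call in either fit. The members called with CNO went from 1 to 0 without the filter on low values and to 0 to 1 when each library was left out. With neuronal medium on wild-type cells the 1 call went to 0 with a pseudocount of 0.1, with median-ratio scaling and with only the groups compared, and to 0 to 1 on leaving out libraries. With neuronal medium on knockout cells 7 calls became 3 with median-ratio scaling and 6 with the replicate block. In Apoe knockout brain with KA, DESeq2 gave 2 calls in place of 0. Counts over all genes also moved. In the first cohort 28 calls became 44 with a pseudocount of 0.1, 2 without the filter, 2 with the replicate block and 0 to 352 on leaving out libraries, with lower calls 14.3% of them and 25.0% after median-ratio scaling. With CNO 571 calls became 197 without the filter, 928 with the block and 167 to 591 on leaving out libraries. With neuronal medium on wild-type cells 6 calls became 3, 30, 2 and 1 with a pseudocount of 0.1, no filter, median-ratio scaling and only the groups compared, and 229 calls between the media became 128 with that pseudocount, 141 with that scaling and 105 to 165 on leaving out libraries. DESeq2 called 136, 278 and 238 genes where edgeR called 13, 26 and 9 in the second cohort, and the 26 for Apoe knockout became 5 with the block and 11 with only the groups compared. The share of promoters with a CArG box went from 1.47% to 8.59% with 1 mismatch. Leaving out both libraries with "mix" in their titles, an alternative chosen after seeing the data, lost 1 call, Lmod1 with neuronal medium on knockout cells (adjusted p = 0.0938). Numbers paired the samples only in the CNO set, where the block changed no call among the 10 genes. No paired analysis was possible for A2aR knockdown against KA because the groups share 1 number.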
